A study of Homo sapiens with 2 samples.

Results

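Mitochondrial ribosomal proteins are the nuclear-encoded proteins of the mitoribosome, and their mRNA levels were compared between wild-type (WT) and PERK-deficient (PERK-KO) HEK293 cells. The genes were chosen by name: every row whose symbol starts with MRPL (large subunit) or MRPS (small subunit) followed by a digit, leaving out 4 antisense or pseudogene rows. This gave 76 genes, 47 of the large and 29 of the small subunit, out of 25277 rows in each deposited table. FPKM, the unit of the tables, is a count of sequenced fragments scaled by transcript length and by the number of mapped fragments. All 76 genes reached an FPKM of 1 in one or both samples, as did 14594 genes in all, called expressed genes from here on.

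HEK293 is a human embryonic kidney cell line, and PERK, encoded by EIF2AK3, is a kinase of the endoplasmic reticulum membrane. The PERK-KO cells were made with CRISPR/Cas9 and grown up from single cells, so they may carry differences of 1 clone. Both genotypes were kept for 12 h in OXPHOS medium, which lacks glucose and holds galactose and pyruvate, so that cells depend on oxidative phosphorylation (OXPHOS) for ATP. There was 1 mRNA library per genotype and hence no replicate: the intervals given here are the confidence limits deposited with each FPKM, which cover counting error within a library, and no p-value could be computed for the genotypes.

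EIF2AK3 was at 5.61 FPKM (confidence limits 5.11 to 6.12) in WT cells and 3.89 FPKM (3.44 to 4.34) in PERK-KO cells. Its mRNA was thus 1.44-fold lower in the library labelled PERK-KO but not absent, and an edited gene can still be transcribed. The HEK293 marker genes VIM, CDH2, KRT8 and KRT18 were between 21.3 and 640 FPKM in both samples, while PAX2 was at 0.981 FPKM in WT and 0.748 FPKM in PERK-KO cells. Of 5 markers of other tissues, ALB, UCP1 and INS were listed at 0 in both samples, PTPRC was at 0.108 and 0.180 FPKM, and ADIPOQ was at 1.68 and 1.42 FPKM. FPKM is a share of a library, and fewer cells expressing a gene cannot be told apart from less of its RNA per cell.

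The mitoribosome translates the mRNAs of the mitochondrial genome, which all encode subunits of the respiratory chain and ATP synthase. Its RNAs come from the mitochondrial genome, while every protein is encoded in the nucleus and imported. Many of these proteins descend from bacterial ribosomal proteins and others exist only in mitochondria, where they surround a shortened ribosomal RNA. Promoters of such genes often hold sites of the ETS family, to which the GABP transcription factor belongs, and of the factors NRF1 and YY1.

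The promoters were searched first for these sites, because GABP is the factor that the study examined next to PERK. RefSeq start sites on GRCh38.p14 were found for 67 of the 76 genes, and for each the 300 bases from 250 before to 50 after the start were read on both strands. The ETS core CCGGAAG was present in 29 of 67 genes (43.3%), compared with 21.7% of 9969 expressed genes and 12.2% of all 27305 genes in the promoter table. AANATGGCG, the YY1 motif, was present in 18 of 67 genes (26.9%), compared with 7.98% of expressed genes. The NRF1 motif was present in 8 of 67 genes (11.9%), close to the 13.0% of expressed genes. Windows of 27 bases around the ETS core are shown for genes that were lower in the knockout beyond the fold threshold given further on, with the core in capitals and the strand on which it reads.
MRPL27, chr17:50373176-50373202, minus strand: cttttcgagaCCGGAAGtgagtgatcg
MRPL51, chr12:6493350-6493376, minus strand: ggcaggcggaCCGGAAGcactgaggcg
MRPL53, chr2:74472736-74472762, minus strand: cagccggcggCCGGAAGtctatcccgc
MRPS34, chr16:1773137-1773163, plus strand: agcggtccggCCGGAAGtcaccggaag
MRPL28, chr16:370515-370541, plus strand: cccaccggaaCCGGAAGccgatctgcc
MRPL54, chr19:3762651-3762677, minus strand: gtgcacgtttCCGGAAGacgtcagtgg
The same core was present in genes with nearly equal or higher mRNA in PERK-KO cells, of which 4 are shown for comparison.
MRPL3, chr3:131502987-131503013, minus strand: gtaaaacgcaCCGGAAGtgggtccggc
MRPS26, chr20:3046005-3046031, minus strand: ccaccgtgccCCGGAAGcggcgcgggg
MRPS22, chr3:139343989-139344015, minus strand: gccacttgcgCCGGAAGtggttgggag
MRPL40, chr22:19432524-19432550, plus strand: gggcgcacgcCCGGAAGcggcgagggt

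In both samples the 76 genes spanned a wide range of levels. WT values ran from 10.5 FPKM for MRPL19 to 514 FPKM for MRPL41, with a median of 60.3 FPKM, and PERK-KO values ran from 11.5 to 304 FPKM for the same genes, with a median of 51.4 FPKM. In WT cells the median mitochondrial ribosomal protein gene was at the 87.9th percentile of expressed genes. The order of genes was nearly the same in both samples, with a Pearson correlation of log2 FPKM of 0.98 over the 76 genes, which share both libraries. The 5 highest genes in WT cells were MRPL41, MRPL12, MRPL51, MRPL23 and MRPS34, and all 5 were also the highest in PERK-KO cells. They held 28.8% of the summed FPKM of the 76 genes in the WT sample, compared with 23.0% in PERK-KO cells. The lowest WT levels after MRPL19 were those of MRPL35, at 13.0 and 13.8 FPKM, and MRPL22, at 14.6 and 12.4 FPKM. The summed FPKM of the 76 genes in PERK-KO cells was 0.757 of that in WT cells, compared with 0.869 for all expressed genes.

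**Figure D1:**
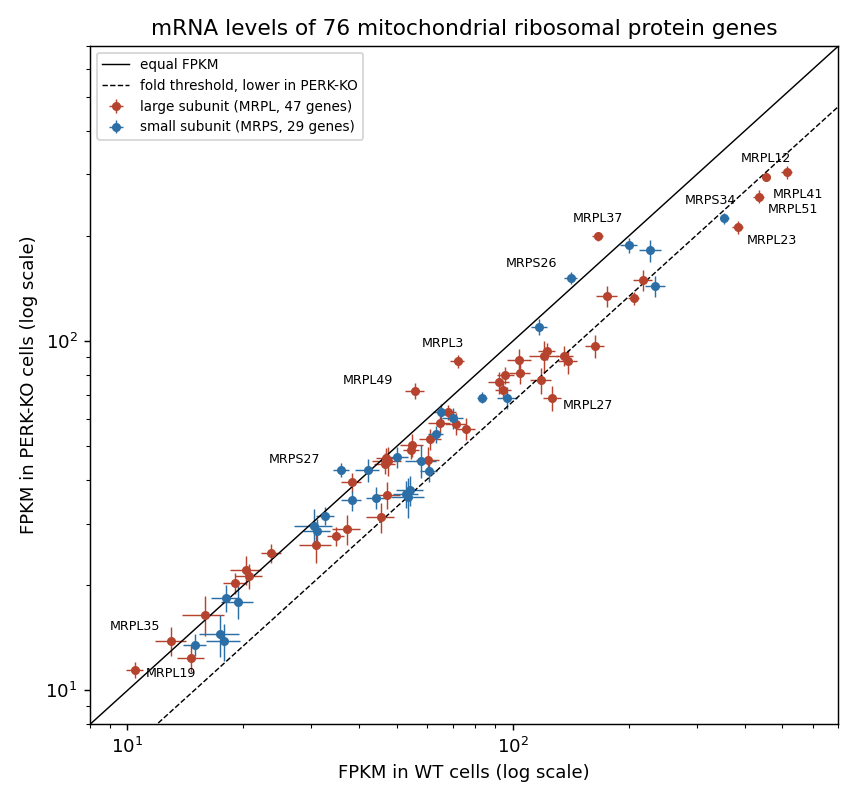
FPKM of each of the 76 genes in WT cells (x axis) and PERK-KO cells (y axis), both on log scales, with bars for the deposited confidence limits and colours for the subunit. The 5 most abundant genes, such as MRPL41 at 514 and 304 FPKM, lie below the dashed threshold line, while most of the less abundant genes lie between it and the line of equal FPKM.

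Most of the genes were lower in PERK-KO cells by a small amount. The log2 fold change (PERK-KO over WT, no pseudocount) was below 0 in 61 of 76 genes (80.3%), compared with 46.4% of all expressed genes. Its median was -0.25, with quartiles of -0.44 and -0.05, compared with a median of 0.04 over all expressed genes. Genes were then counted beyond a log2 fold change of 0.58 in either direction, the threshold taken over from the study. Beyond it 12 of 76 genes (15.8%) were lower, against a background of 7.83% of all expressed genes. No gene of the 76 was higher beyond that threshold, against a background of 10.5%. The confidence limits of the genotypes lay apart in 42 genes that were lower (background 18.7%) and in 4 that were higher (background 26.1%), and overlapped in the remaining 30. At a smaller log2 threshold of 0.32, 31 genes were lower (background 18.4%) and 1 was higher (background 24.3%), and none was lower 2-fold (background 2.08%). All 12 genes lower beyond the main threshold had limits apart. The values rest on between 256 and 7241 fragments per gene in WT cells (median 1083) and between 209 and 4496 in PERK-KO cells (median 795), so that a log2 fold change is known within 0.13 for the median gene, counting error alone.

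**Figure D2:**
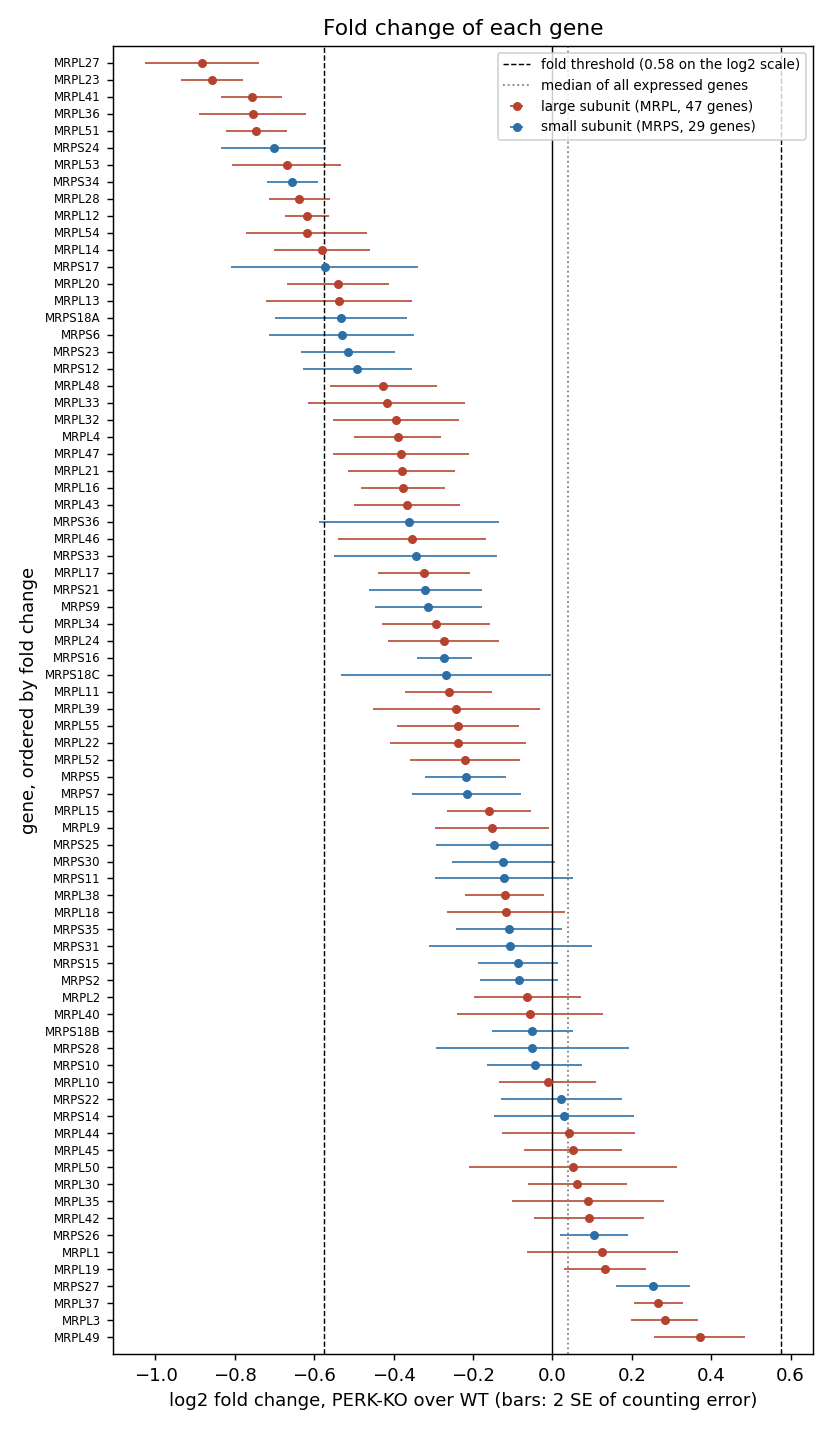
Log2 fold change of each of the 76 genes, from the lowest at the top to the highest at the bottom, with bars of 2 standard errors (SE) of counting error and colours for the subunit. Of the 12 genes left of the dashed threshold line 10 are large subunit genes, and none of the 76 passes the threshold line on the right.

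The large subunit joins amino acids into protein, and 6 of the 8 lowest fold changes were those of its genes. MRPL27, the counterpart of a bacterial protein that reaches the peptidyl transferase centre (hg19 chr17:48445228-48450562), was at 127 FPKM (120 to 134) in WT cells and 68.7 FPKM (63.0 to 74.3) in PERK-KO cells. This was the lowest fold change of the 76 genes, with a log2 value of -0.88 ± 0.07 (SE). MRPL23, a protein at the mouth of the tunnel through which the nascent chain leaves (chr11:1968502-1977839), was at 383 FPKM (372 to 395) and 212 FPKM (202 to 221), with a log2 value of -0.86 ± 0.04. In both genes the intervals of the 2 samples lay far apart.

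MRPL41, a mitochondria-specific protein and the most abundant of the 76 mRNAs (chr9:140446309-140447007), was at 514 FPKM (498 to 530) in WT cells and 304 FPKM (291 to 317) in PERK-KO cells. MRPL36, the counterpart of one of the smallest bacterial ribosomal proteins (chr5:1798499-1799956), was at 163 FPKM (154 to 172) and 96.7 FPKM (89.4 to 104). MRPL51, a further mitochondria-specific protein (chr12:6601316-6602471), was at 435 FPKM (421 to 448) and 259 FPKM (248 to 270). These 3 genes had nearly the same fold change, with log2 values of -0.76, -0.76 and -0.75. MRPL53, also found only in mitochondria (chr2:74699085-74699942), was at 139 FPKM (131 to 147) in WT cells and 87.4 FPKM (80.8 to 94.1) in PERK-KO cells, with a log2 value of -0.67 ± 0.07.

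MRPL12, the protein of the flexible stalk that recruits translation factors (chr17:79670400-79674556), was at 454 FPKM (444 to 465) in WT cells and 296 FPKM (287 to 305) in PERK-KO cells, 1.54-fold lower. The remaining 3 large subunit genes beyond the threshold, MRPL28, MRPL54 and MRPL14, are named here after their values were seen. MRPL28 was at 206 and 132 FPKM, MRPL54 at 118 and 77.1 FPKM, and MRPL14 at 136 and 90.9 FPKM in WT and PERK-KO cells. MRPL14, with a log2 value of -0.58, was the last gene inside the threshold. The small subunit gene MRPS17, with a log2 value of -0.57, was the first outside it, from 53.4 FPKM (48.2 to 58.7) to 35.9 FPKM (31.2 to 40.6). The interval of 2 SE around the MRPS17 log2 value, -0.81 to -0.34, spans the threshold.

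The small subunit binds the mRNA and reads its codons, and 2 of its 29 genes were lower beyond the threshold. MRPS24, the counterpart of a bacterial protein at the channel where mRNA enters (chr7:43906157-43909145), was at 234 FPKM (220 to 248) in WT cells and 144 FPKM (134 to 154) in PERK-KO cells. Its locus lies within that of the read-through transcript URGCP-MRPS24, which was at 1.56 FPKM in the WT sample and near 0 in the PERK-KO sample, so fragments may be divided between these rows. MRPS34, a mitochondria-specific protein in which mutations cause Leigh syndrome (chr16:1821896-1823140), was at 354 FPKM (344 to 363) and 225 FPKM (217 to 233). The 2 genes were 1.63-fold and 1.58-fold lower.

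The genes that were higher in PERK-KO cells with limits apart came from both subunits, and none reached the threshold. MRPL49, a mitochondria-specific protein (chr11:64889655-64894841), was at 55.6 FPKM (52.4 to 58.8) in WT cells and 72.0 FPKM (68.1 to 75.9) in PERK-KO cells, with a log2 value of 0.37 ± 0.06. This was the highest of the 76 genes. The annotated row of SYVN1, a ubiquitin ligase, overlaps that of MRPL49 by 91 bases and was at 26.4 FPKM in WT and 73.5 FPKM in PERK-KO cells. The row of FAU, which encodes a cytosolic ribosomal protein, overlaps it by 18 bases and was at 2018 FPKM and 1284 FPKM, lower in PERK-KO cells. Whether reads of one were counted for another was not tested.

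MRPL3, the counterpart of a core bacterial protein near the peptidyl transferase centre (chr3:131181045-131221860), was at 71.9 FPKM (68.8 to 74.9) in WT cells and 87.5 FPKM (83.9 to 91.0) in PERK-KO cells. MRPL37, mitochondria-specific (chr1:54665840-54684056), was at 166 FPKM (161 to 171) and 200 FPKM (194 to 205). MRPS27, a pentatricopeptide repeat protein (chr5:71515236-71616084), was at 35.9 FPKM (34.2 to 37.5) and 42.7 FPKM (40.8 to 44.7). The log2 fold changes of these 3 genes were 0.28, 0.27 and 0.25. MRPL37 was the most abundant of the 15 genes with a log2 fold change above 0.

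The other 4 of the 8 highest fold changes had limits that overlapped between genotypes. MRPL19 was at 10.5 and 11.5 FPKM in WT and PERK-KO cells, and was the lowest of the 76 genes in both. MRPL1, of the mobile stalk at the site where tRNA leaves, was at 20.3 and 22.1 FPKM, MRPS26 at 141 and 152 FPKM, and MRPL42 at 19.0 and 20.3 FPKM. The 5 genes nearest to equal levels were MRPL10, MRPS22, MRPS14, MRPL44 and MRPS10, with log2 fold changes from -0.04 to 0.04. MRPS22, for instance, was at 42.1 FPKM (39.0 to 45.1) and 42.7 FPKM (39.5 to 46.0).

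Genes of one place in the ribosome did not share one fold change. Of the stalk and its base, MRPL12 was 1.54-fold lower while MRPL10, which anchors it, was at 46.8 FPKM (44 to 49.5) and 46.4 FPKM (43.5 to 49.3). Their log2 fold changes differed by -0.61, with a counting interval of -0.74 to -0.47. MRPL11, which lies beside them, was in between at 95.6 and 79.8 FPKM.

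At the exit tunnel, MRPL23 had a log2 fold change of -0.86 and the neighbouring MRPL24 one of -0.27, a difference of -0.58 (interval -0.74 to -0.42). MRPL22 was at 14.6 FPKM (13.5 to 15.8) and 12.4 FPKM (11.3 to 13.5), with overlapping limits. MRPL44, with a fold of the RNase III family, was at 20.7 and 21.3 FPKM, and MRPL45, which tethers the mitoribosome to the inner membrane, was at 38.2 and 39.6 FPKM. At this one site, values thus ran from clearly lower to nearly equal.

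The central protuberance, a large subunit feature facing the small subunit, was represented by 6 genes, and all 6 had log2 fold changes below 0 (46.4% of all expressed genes), from -0.88 for MRPL27 to -0.06 for MRPL40. MRPL48 was at 75.4 FPKM (71.0 to 79.8) in WT cells and 56.1 FPKM (52.1 to 60.2) in PERK-KO cells. MRPL46 was at 37.1 FPKM (34.0 to 40.1) and 29 FPKM (26.1 to 31.9), while the limits of MRPL18, MRPL38 and MRPL40 overlapped between genotypes. MRPL27 and MRPL18 differed by -0.77 in log2 fold change (interval -0.97 to -0.56).

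In the small subunit, 3 genes were taken for decoding and mRNA entry, and all 3 were lower with limits apart, as were 55.3% of the 76 genes and 18.7% of all expressed genes. MRPS12, the counterpart of the bacterial protein that guards the accuracy of decoding, was at 96.7 FPKM (90.8 to 103) in WT cells and 68.8 FPKM (63.8 to 73.8) in PERK-KO cells. MRPS5 was at 63.0 FPKM (60.1 to 65.9) and 54.1 FPKM (51.2 to 57.1). The log2 fold changes of MRPS24 and MRPS5 differed by -0.48, with an interval of -0.65 to -0.32. That interval covers counting error only. The ratio of the FPKM of 1 fragment, PERK-KO over WT, was 0.880 for MRPS24 and 1.16 for MRPS5.

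Mammals have 3 paralogs of a single bacterial small subunit protein, and each ribosome holds them at separate places. MRPS18A, which despite its name sits in the large subunit, was at 52.8 FPKM (49.0 to 56.7) in WT cells and 36.5 FPKM (33.3 to 39.8) in PERK-KO cells. MRPS18B was at 65.1 FPKM (62.0 to 68.2) and 62.9 FPKM (59.6 to 66.1). MRPS18C, at the bacterial position, was at 17.4 FPKM (15.3 to 19.5) and 14.5 FPKM (12.5 to 16.5). The fold changes of MRPS18A and MRPS18B differed by -0.48 (interval -0.68 to -0.29). Those of MRPS18C could not be set apart from either paralog at this depth, with intervals of -0.50 to 0.07 for MRPS18C minus MRPS18B and -0.58 to 0.05 for MRPS18A minus MRPS18C. The tables also hold 6 rows of MRPS18B on alternate haplotypes, all listed at 0.

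The other 35 genes, 19 of the large and 16 of the small subunit, lay between these extremes. They ran from 15.0 to 227 FPKM in the WT sample and from 13.5 to 188 FPKM in the PERK-KO sample, with log2 fold changes from -0.54 to 0.06 and a median of -0.27. Of these, 22 were lower with limits apart (background 18.7%), and the limits of 13 overlapped. All genes that were higher with limits apart had been named above and so were left out of the 35. Their absence here was thus set by the choice of genes. The lowest fold changes were left out in the same way, so the 35 do not stand for the whole set. MRPL20, a large subunit protein with a bacterial counterpart, had the lowest value of the 35. It went from 218 FPKM (205 to 230) in WT to 150 FPKM (139 to 160) in PERK-KO cells. For this gene the FPKM of 1 fragment was in PERK-KO cells 0.918 times the WT value, against a median of 1.14 over expressed genes. The most abundant of them, MRPS21, was at 227 FPKM (212 to 242) and 182 FPKM (168 to 195). MRPS2, also abundant, was at 200 FPKM (190 to 209) and 188 FPKM (179 to 198), with overlapping limits. These 3 are named after their values were seen.

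The subunits differed little in their medians. Among large subunit genes the median log2 fold change was -0.27, with 10 of 47 genes (21.3%) lower beyond the threshold, against 7.83% of all expressed genes. Among small subunit genes it was -0.22, with 2 of 29 genes (6.90%) lower, a share near that background. The difference of medians, large minus small, was -0.06, and with MRPS30 and MRPS18A moved to the large subunit where they are found, and MRPS36, a component of a dehydrogenase complex, left out, it was -0.09. The large subunit held 68.8% of the summed FPKM in WT and 66.6% in PERK-KO cells. No test of the subunits was made, since genes of the same 2 libraries are not replicates of a genotype.

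Over 47 genes with a bacterial counterpart the median log2 fold change was -0.27, and over 28 mitochondria-specific genes it was -0.13. The shares lower beyond the threshold were 7 of 47 (14.9%) and 5 of 28 (17.9%), beside the same 7.83%, so the order of the medians was not that of the shares. Both kinds held genes from the lowest to the highest fold changes.

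Transcript length went with the fold change among all expressed genes, so it was taken into account. Over all expressed genes shorter transcripts had lower fold changes, with a Spearman correlation of 0.40 between the log2 fold change and the length implied by the files. That length was worked out from the FPKM that 1 fragment is worth, which the confidence limits give. The annotated canonical transcript (GENCODE 44) was more than 1.5 times longer than the implied one in 27 of the 76 genes. In 0 genes was it shorter by that factor. The implied length holds only as far as the limits cover counting error alone. Which length is nearer to that of the transcripts in these cells was not tested. Mitochondrial ribosomal protein genes are short, with a median implied length of 911 bases compared with 2479 bases for expressed genes. Among the 76 genes the correlation was 0.64. It was 0.72 over the 47 large and 0.44 over the 29 small subunit genes. With the annotated length it was 0.56 over the 76 genes, 0.70 over the large and 0.17 over the small subunit genes.

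Within classes of like implied length the share of lower genes was near or under that of all genes. Under 800 bases of implied length, 9 of 27 genes (33.3%) were lower beyond the threshold, against 27.9% of all 1494 genes of that length, and their medians were -0.49 and -0.33. From 800 to 1200 bases 3 of 21 genes (14.3%) were lower, against a background of 15.8%, with medians of -0.26 and -0.20. From 1200 to 2000 bases none of 18 genes was lower, against 7.63%, with medians of -0.06 and -0.09. From 2000 bases on none of 10 genes was lower, against 2.83%, with medians of 0.01 and 0.14. Only in the shortest of these 4 classes was the share above that of all genes, by 5.42 percentage points. By annotated length the shortest class stood further off: 7 of 13 genes were lower, against 34.2% of 691 genes, with medians of -0.62 and -0.41. From 800 to 1200 annotated bases 4 of 20 genes were lower, against 19.4%. From 1200 to 2000 annotated bases 1 of 26 was lower, against 10.2%, and from 2000 bases on 0 of 17, against 3.44%.

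By class of implied length, the medians of the large subunit were higher in each longer class. Those of the small subunit were so only from the shortest to the middle class. For the large subunit the median log2 fold change was -0.54 over 19 genes under 800 bases, -0.32 over 12 genes from 800 to 1200 bases and 0.06 over 16 longer genes. For the small subunit the medians were -0.42 over 8 genes, -0.12 over 9 genes and -0.13 over 12 genes. The groups are small, and the difference between the subunits in this trend was not tested.

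When each gene was compared with the 200 expressed genes nearest in length, most of the difference in the median went away. The median log2 fold change of such neighbours was -0.24 by annotated and -0.20 by implied length. The median of the 76 genes after subtracting it was -0.05 by annotated length, with 44 of 76 genes below 0, and -0.06 by implied length, with 42 of 76 genes below 0. Under the other settings tried the adjusted median lay between -0.10, over the 42 genes in which the FPKM of 1 fragment kept the median ratio between samples within 2%, and -0.05, with -0.09 when no filter on low values was used and -0.08 with the 100 nearest genes. By implied length none of the 76 genes stayed beyond the threshold in either direction, against 5.59% of genes lower and 7.55% higher. Past 0.3 on the log2 scale 12 of 76 genes were lower than genes of like length (background 18.8%) and 5 were higher (background 19.8%).

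Some genes stood off from genes of like length by more than their counting error. MRPL27 was at -0.56 by implied length, the lowest of the 76 genes, and at -0.45 by annotated length, where MRPS23, MRPS33 and MRPL28 were lower, MRPS23 at -0.70. The annotated transcripts of MRPS23 and MRPS33 were 5609 and 4210 bases long, against implied lengths of 1460 and 470 bases. MRPL23 was at -0.54 and -0.40, and MRPS34 at -0.47 and -0.32. In the other direction MRPL49 was at 0.50 and 0.47, MRPL37 at 0.37 and 0.42, and MRPL3 at 0.34 and 0.42. For these 6 genes the direction was thus the same by both lengths.

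The sign of the difference between subunits after this adjustment depended on the length used. By annotated length the medians were -0.03 for the large and -0.12 for the small subunit, a difference of 0.09, which was 0.02 without the filter on low values, 0.04 with the 100 nearest genes and 0.04 with the 400 nearest. By implied length they were -0.06 and -0.03, a difference of -0.04. For genes with a bacterial counterpart the adjusted median was -0.12 by annotated and -0.07 by implied length, and for mitochondria-specific genes it was 0.02 by both.

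**Figure D3:**
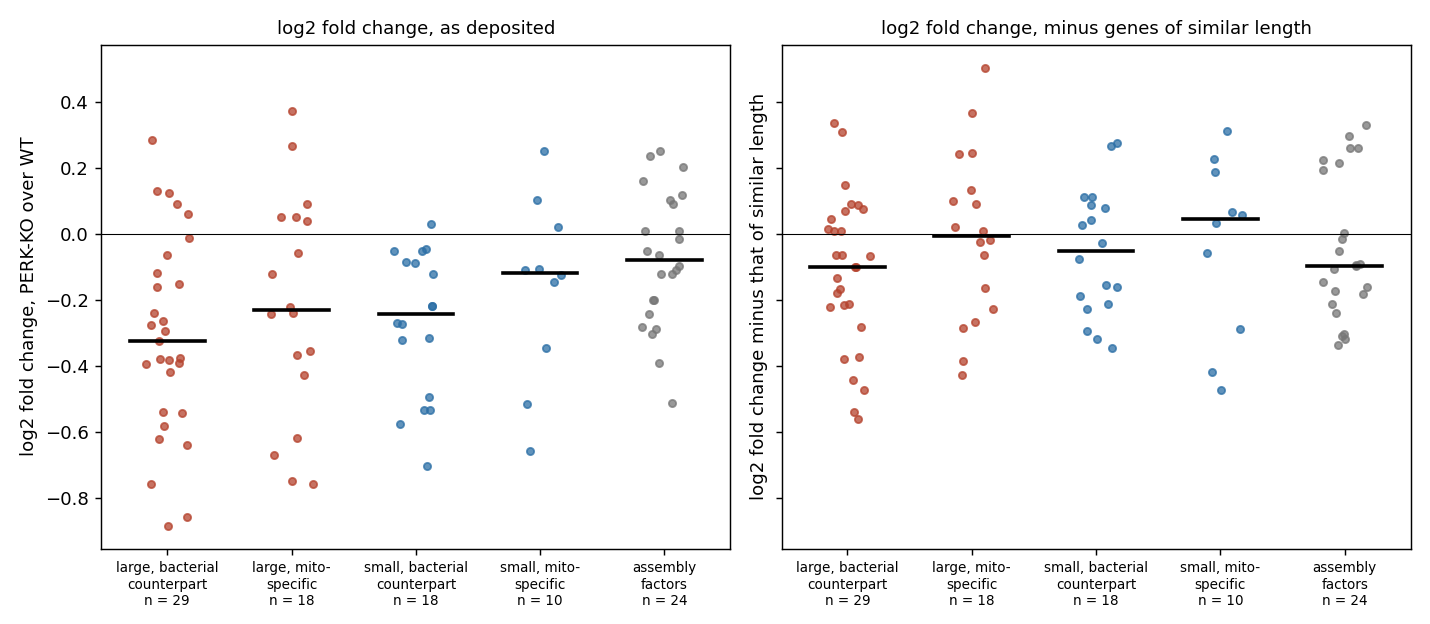
Log2 fold change of each gene by subunit and origin (75 genes, without MRPS36) and of 24 assembly factors, as deposited on the left and minus the median of the 200 genes nearest in implied length on the right. Points are genes and black lines are medians, which range from -0.32 to -0.08 on the left and lie within 0.10 of 0 on the right.

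The level of an mRNA also went with its fold change. Among the 25 genes with the highest geometric mean FPKM, all at 83.8 or more, 12 were lower beyond the threshold, against 17.9% of all 1215 expressed genes at or above that level. None of the 25 genes in the middle passed, against 8.19% of the 1123 expressed genes in their range of levels, and none of the 26 lowest, against 4.08% of 4464. The medians of the 3 classes were -0.54, -0.22 and -0.08. Abundant and short went together: 18 of the 25 highest genes had implied lengths under 800 bases, and 9 of these 18 were lower beyond the threshold, against 26.2% of the 663 expressed genes of that level and length. The Spearman correlation of the log2 fold change with the WT level was -0.58 over the 76 genes, of which each shares its WT value with its fold change.

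The ETS core was found among the lower genes and among the others. It was present in 6 of the 11 genes lower beyond the threshold that had a promoter in the table, in 23 of the 56 others and in 4 of the 14 above 0. The median log2 fold change was -0.37 for genes with the core and -0.22 for genes without it, and after adjustment for implied length the medians were -0.07 and -0.02. With the YY1 motif the median was -0.14 and without it -0.27, and after the same adjustment the medians were -0.03 and -0.06. A match is a description of the letters and says nothing of binding in these cells. GABPA, the DNA-binding subunit of GABP, was at 8.16 and 9.29 FPKM in WT and PERK-KO cells, and its partner GABPB1 was at 9.28 and 11.1 FPKM. NRF1 was at 8.06 FPKM in both. The limits of all 3 factors overlapped between genotypes.

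Proteins of the mitoribosome that carry other symbols were examined as well. Over 7 such genes the median log2 fold change was -0.44, 5 of 7 were lower with limits apart (background 18.7%), and 2 of 7 were lower beyond the threshold (background 7.83%). CHCHD1, a small subunit protein, was at 84.3 FPKM (79.2 to 89.4) in WT cells and 47.1 FPKM (43.0 to 51.3) in PERK-KO cells. GADD45GIP1, a large subunit protein, was at 266 FPKM (256 to 276) and 176 FPKM (168 to 185). AURKAIP1 was at 298 FPKM (285 to 310) and 202 FPKM (193 to 212), just under the threshold at 1.47-fold.

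MRP63 was at 18.7 and 13.7 FPKM and ICT1, a peptidyl-tRNA hydrolase built into the large subunit, at 54.2 and 41.6 FPKM, both with limits apart. DAP3, a GTP-binding protein of the small subunit, was higher in PERK-KO cells, at 52.2 FPKM (49.5 to 54.9) and 59.4 FPKM (56.4 to 62.4). PTCD3, which binds mRNA at the small subunit, was at 8.72 and 9.09 FPKM, with overlapping limits. By implied length the 7 genes had an adjusted median of -0.21, and 6 of them were below 0.

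Cytosolic ribosomal proteins and complex I subunits were set beside these genes as 2 other sets of short, abundant transcripts. Over 78 cytosolic ribosomal protein genes the median log2 fold change was -0.42 and 22 (28.2%) were lower beyond the threshold, against 7.83% of all expressed genes and 27.9% of those under 800 bases of implied length. Over 37 complex I subunits, the entry enzyme of the respiratory chain, it was -0.50 and 16 (43.2%) were lower, beside the same backgrounds. After adjustment for implied length the medians were -0.02 for cytosolic ribosomal proteins, -0.06 for mitochondrial ribosomal proteins and -0.21 for complex I. By annotated length, in the same order, they were -0.15, -0.05 and -0.18. The order of the cytosolic and the mitochondrial ribosomal proteins thus depended on the length used. The differences between these sets were not tested.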

How the data were processed

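RNA from 1 WT and 1 PERK-KO sample was sequenced after poly(A) selection. The deposited values are the FPKM of each gene and its confidence limits, which the authors computed on hg19 with TopHat2 2.0.13 and Cufflinks 2.2.1, per the submitters' processing notes. The annotation and the strand setting of the counting are not given in the sources used here, and total depth is not in these tables. FPKM are not counts, so no count model was used.

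The limits lie 2 SD from the value. From them, the fragments behind a value (the squared ratio of FPKM to SD), the FPKM of 1 fragment and the SE of each log2 fold change were derived. The FPKM of 1 fragment was 1.14 times higher in PERK-KO than in WT cells over the median expressed gene. Over the 76 genes it was between 0.880 times (MRPS24) and 1.19 times the WT value. Its inverse, scaled on 7870 rows within 2% of the median ratio, gave the implied transcript length. Rows on main chromosomes that reached an FPKM of 1 in one or both samples were kept. Annotated lengths came from canonical transcripts of GENCODE 44 on GRCh37, matched by symbol and position or by a mutual overlap of 0.7 or more, for 94.8% of expressed genes and all 76 members. The fold threshold of 0.58 on the log2 scale is that of the study. Length-adjusted values subtract the median of the 200 nearest genes. Promoters are RefSeq sequences; a gene with several starts counted as holding a motif if any window did.

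The 76 genes and all gene lists were chosen with earlier results of these data known. Named genes were the 8 lowest and 8 highest fold changes, the 5 highest and 3 lowest levels, the MRPS18 paralogs, genes listed by place in the ribosome, the 5 nearest to 0, proteins with other symbols and the factors. The alternatives tried were pseudocounts, filters on low values, scaling, summed haplotype rows, added proteins, subunit by position, thresholds and the number of nearest genes. Use of the implied length in every row, and the separate adjusted medians of the subunits, were added after seeing the data. The scripts were tested on simulated data. Python 3.11.15 with numpy 2.4.6, pandas 2.3.3, scipy 1.17.1 and matplotlib 3.10.9 was used.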

Additional observations from a re-analysis of the deposited data

How the results depend on the processing

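With other thresholds the number of genes lower in PERK-KO cells was 31 beyond 0.32 on the log2 scale and 0 beyond 2-fold instead of 12, and the number higher was 1 beyond 0.32 instead of 0. The length-adjusted difference between subunits, 0.09 by annotated length, was -0.14 by the length implied in the 42 genes whose rows lay within 2% of the median ratio and -0.038 by the implied length of all 76. By annotated length it was 0.024 without a filter on low values, 0.039 with 100 and 0.044 with 400 nearest genes, and 0.049 with a pseudocount of 1. The length-adjusted median of the 76 genes, -0.051, was -0.10 in the 42 genes, -0.093 without a filter, -0.084 with 100 nearest genes and also with the added proteins. The length-adjusted median of the small subunit, -0.12, was 0.018 in those 42 genes. The implied lengths were scaled to the annotated ones at the median and differ from them gene by gene. In the setting with 42 genes, the nearest genes also came only from rows within 2% of the median ratio. The medians of the 76 genes and of each subunit kept their direction under the pseudocounts, filters, scalings, summed rows and added proteins that were tried, and the count of 12 ranged within 1.5 times. Setting the median of expressed genes to 0 moved 8 of the 76 log2 fold changes by more than 1 SE and turned the sign of 2, leaving 63 below 0. Making the 75th percentiles equal turned 1. No paired analysis was possible because each genotype has 1 sample, and for the same reason no replicate could be left out. The deposited limits cover counting error of 1 library, and differences between cultures, clones or library preparations cannot be told apart from the genotype.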

Other observations

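Factors that assemble the mitoribosome were measured beside its proteins. Of 25 listed, 24 were expressed, with a median log2 fold change of -0.08, and none was beyond the fold threshold, against 7.83% of all expressed genes lower and 10.5% higher. MTG1, a GTPase of large subunit assembly, was at 40.6 FPKM (37.6 to 43.5) in WT cells and 28.4 FPKM (26.0 to 30.9) in PERK-KO cells. TRUB2, a pseudouridine synthase family protein, and FTSJ2, a methyltransferase of mitochondrial ribosomal RNA, were also lower with limits apart, at 32.4 and 24.7 FPKM and at 34.0 and 29.6 FPKM. DHX30, an RNA helicase, and NOA1, a GTPase, were higher with limits apart, at 41.9 and 49.4 FPKM and at 18.1 and 21.5 FPKM. These 5 factors are named after their values were seen.

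For 25 of the 76 genes another gene starts on the opposite strand within 1000 bases upstream of the start. The median log2 fold change of these partners was -0.02, compared with -0.22 for the 25 genes themselves, and 15 pairs shared their sign. Neither median is adjusted for transcript length, which took away most of the difference in the median of the 76 genes. Whether the 25 genes differ from their partners at like length was not tested. The Spearman correlation over the pairs was -0.06, with the pair of MRPL46 and MRPS11 counted from both sides. The pairs named here were chosen after their values were seen. MRPL49 was higher in PERK-KO cells, and its partner FAU, which encodes a cytosolic ribosomal protein, was at 2018 FPKM in WT and 1284 FPKM in PERK-KO cells. MRPL51 was 1.68-fold lower, and its partner NCAPD2, a condensin subunit, was at 47.4 FPKM (45.9 to 48.8) and 58.3 FPKM (56.6 to 60.0). MRPL32 was lower from 60.1 to 45.7 FPKM, and its partner PSMA2, a proteasome subunit, from 124 FPKM (120 to 129) to 75.8 FPKM (72.1 to 79.5).

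The rows left out by the naming rule had low levels. The antisense row MRPL23-AS1 was at 0.786 FPKM in WT and 1.43 FPKM in PERK-KO cells, and the pseudogene MRPL45P2 at 6.77 and 9.06 FPKM. MRPS31P5 was at 5.50 and 5.25 FPKM and MRPL42P5 at 0.639 and 0.852 FPKM. The limits of all 4 rows overlapped between genotypes.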
